A study of Arabidopsis thaliana with 3 samples.

Results

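Genes for defense proteins were taken from the genes that the authors called different between *dss1(I)* and WT seedlings. A gene was included when its description held the words disease resistance, TIR-NBS, NB-ARC, TIR domain, defensin, chitinase, osmotin, thaumatin or MLO, did not mention a kinase or a pathogenesis-related protein, and had no entry in the column of protein domains. The rule gave 11 of the 2762 genes in the table. They are 4 defensin-like genes, 5 chitinase-like genes, the leucine-rich repeat gene AT5G45510 and AT1G31880. The words were set with receptors in view, but receptor genes mostly have TIR or NB-ARC written in the domain column, so that 29 genes with the same words fell outside the rule. The set therefore holds mostly genes described as types of secreted defense protein. It also holds 1 receptor-like gene and AT1G31880, which entered through a domain name only. The receptor genes with a filled domain column are described after the members.

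Plants recognise pathogens inside the cell with receptors that join a nucleotide-binding NB-ARC domain to leucine-rich repeats, often with a TIR domain in front. TIR receptors signal through EDS1 and PAD4 to salicylic acid, the hormone behind the secreted protein PR1. Defensins are small secreted proteins held together by disulfide bonds, many of them antifungal, and chitinases cut chitin, a polymer of fungal cell walls. *PDF1.1* is a plant defensin of the family whose *PDF1.2* relatives are standard marker genes of jasmonate and ethylene signaling.

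Seedlings of *A. thaliana* aged 14 days were moved to agar with 10 mM hydrogen peroxide (H2O2) and collected after 3 days. WT was Columbia-0, and the mutant was the homozygous CRISPR/Cas9 indel line *dss1(I)del25*, described in the labels as a knockdown, so that oxidative stress was shared by both genotypes and no untreated seedlings entered the comparison. Each genotype is 1 library of whole seedlings, made from RNA collected in 3 independent experiments. The library of the *dss1(V)* line was not used here.

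The libraries held 11033843 reads on genes in *dss1(I)* and 9394592 in WT, and the genes of the table took 9.49% and 10.7% of them. The mutated gene was looked at first. *AtDSS1(I)* (AT1G64750) had 233 *dss1(I)* reads and 807 WT reads, or scaled counts of 216.1 and 870.2, and the interval of its log2 ratio ran from -2.24 to -1.81. Its paralog *AtDSS1(V)* (AT5G45010) had 21 *dss1(I)* reads and 73 WT reads, a log2 ratio of -1.96 with an interval from -2.80 to -1.31. Both are short genes, of 984 and 937 bp. Of 695 called genes from 435 to 1121 bp, 89.8% were lower in *dss1(I)*, so this direction is the usual one at their length. Log2 ratios were computed from the authors' scaled counts with a pseudocount of 1, *dss1(I)* over WT. The intervals are exact 95% intervals of the ratio of reads and cover counting error only. With 1 library per genotype there is no replicate check, a difference between genotypes and a difference between libraries cannot be told apart, and no p-value is given. Every gene in the table had been called by the authors, so each member had to differ, and its direction and size are a description. In whole seedlings, fewer cells of a type and less RNA per cell cannot be told apart. Of 7 green tissue marker genes, 0 were in the table. Of 7 root marker genes 1 was in it, the root endodermis regulator *SCR* with 260 *dss1(I)* reads and 95 WT reads, and the part of tissue makeup in the results was not tested.

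The 4 defensin-like members were short genes of 435 to 1393 bp with coding sequences of 243 to 267 bp. Their coding sequences are shown because cysteines, which form the disulfide bonds of a defensin, are what the 4 have in common. They were read from the TAIR10.1 genome and annotation of RefSeq, in which all 11 members have the same start and end as in the table. Each is written from the start to the stop codon on the coding strand, with the cysteine codons in capitals.
PDF1.1 (AT1G75830), chromosome 1: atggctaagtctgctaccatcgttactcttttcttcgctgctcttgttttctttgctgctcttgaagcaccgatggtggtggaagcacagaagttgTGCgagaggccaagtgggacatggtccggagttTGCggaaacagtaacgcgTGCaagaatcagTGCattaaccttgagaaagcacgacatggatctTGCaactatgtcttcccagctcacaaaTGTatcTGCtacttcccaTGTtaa
AT3G59930, chromosome 3: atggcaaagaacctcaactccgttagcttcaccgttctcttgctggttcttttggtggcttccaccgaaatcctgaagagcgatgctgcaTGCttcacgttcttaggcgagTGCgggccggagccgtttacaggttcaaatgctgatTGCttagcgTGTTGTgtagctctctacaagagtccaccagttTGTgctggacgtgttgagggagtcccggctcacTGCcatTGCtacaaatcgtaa
AT4G22212, chromosome 4: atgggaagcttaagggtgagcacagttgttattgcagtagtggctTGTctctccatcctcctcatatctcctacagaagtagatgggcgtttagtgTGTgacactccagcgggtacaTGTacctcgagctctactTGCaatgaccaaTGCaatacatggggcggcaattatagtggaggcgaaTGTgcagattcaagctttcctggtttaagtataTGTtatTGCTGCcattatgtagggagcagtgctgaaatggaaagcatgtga
AT3G05730, chromosome 3: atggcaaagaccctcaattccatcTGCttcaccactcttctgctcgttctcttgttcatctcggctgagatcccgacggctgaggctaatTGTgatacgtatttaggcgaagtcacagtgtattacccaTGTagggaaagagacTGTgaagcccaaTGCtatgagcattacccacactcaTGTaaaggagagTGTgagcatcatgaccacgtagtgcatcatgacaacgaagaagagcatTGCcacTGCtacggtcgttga
The proteins have 80, 80, 88 and 86 residues in this order, of which 8, 8, 9 and 9 are cysteines. Cysteine made up 10% of *PDF1.1* and AT3G59930, 10.2% of AT4G22212 and 10.5% of AT3G05730. Over the 2680 genes of the table with an annotated protein the median was 1.64%, and 24 genes reached 9% or more. In *PDF1.1* the first cysteine is at position 33, after a stretch that holds none. The 4 proteins otherwise differ from each other: AT3G59930 and AT3G05730 are 41.6% identical, and the other pairs are 19.1% to 28.4% identical.

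*PDF1.1* and AT3G59930 were higher in *dss1(I)*, whereas AT4G22212 and AT3G05730 were lower. *PDF1.1* (435 bp, plus strand of chromosome 1, TAIR10 28472357 to 28472898) had 77 *dss1(I)* reads and 32 WT reads. Scaled to a common library size these were 71.4 and 34.5, 2.04-fold higher in *dss1(I)*, a log2 ratio of 1.03 with an interval from 0.42 to 1.68. Its FPKM, a level per gene length, was 16.0 in *dss1(I)* and 7.83 in WT. The interval excluded 0, which the authors' call had largely settled beforehand. The size of the difference reached from less than 2-fold to more than 3-fold. The longest stretch that the *PDF1.1* transcript shares with another gene is 45 bases with AT5G44430, shorter than the reads of 150 bases.

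AT3G59930 (defensin-like, 716 bp, minus strand of chromosome 3, 22139492 to 22140320), had 218 *dss1(I)* reads and 64 WT reads. Its scaled counts were 202.2 and 69.0, 2.90-fold higher in *dss1(I)*, with a log2 ratio of 1.54 and an interval from 1.13 to 1.96. At 27.6 FPKM in *dss1(I)* and 9.51 in WT it was the defensin-like gene with the highest level in *dss1(I)*. The whole interval lay above a 2-fold difference. These counts are uncertain in 1 respect, because the transcript shares 218 identical bases with AT5G33355, which is longer than a read, and the proteins are 98.8% identical. AT5G33355 is not among the 2762 genes, and reads that fit both genes cannot be assigned from the table.

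AT3G05730 (defensin-like, 1393 bp, plus strand of chromosome 3, 1695156 to 1696708), had 179 *dss1(I)* reads and 364 WT reads. Its scaled counts were 166.0 and 392.5, 2.36-fold lower in *dss1(I)*, a log2 ratio of -1.24 with an interval from -1.52 to -0.99. Its level of 27.8 FPKM in WT was the highest of the 4 defensin-like genes there, and in *dss1(I)* it stood at 11.6 FPKM, below AT3G59930 and *PDF1.1*. The protein most like it among the members, AT3G59930, thus differed in the opposite direction. AT4G22212 (defensin-like, 790 bp, plus strand of chromosome 4, 11753842 to 11754752), had only 10 *dss1(I)* reads and 24 WT reads. Its log2 ratio of -1.39 had a wide interval, from -2.72 to -0.38, and its level was 1.15 FPKM in *dss1(I)* and 3.23 in WT. Summed over the 4 genes, the level was 56.4 FPKM in *dss1(I)* and 48.4 in WT, so that the opposite differences left sums close to each other.

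**Figure D1:**
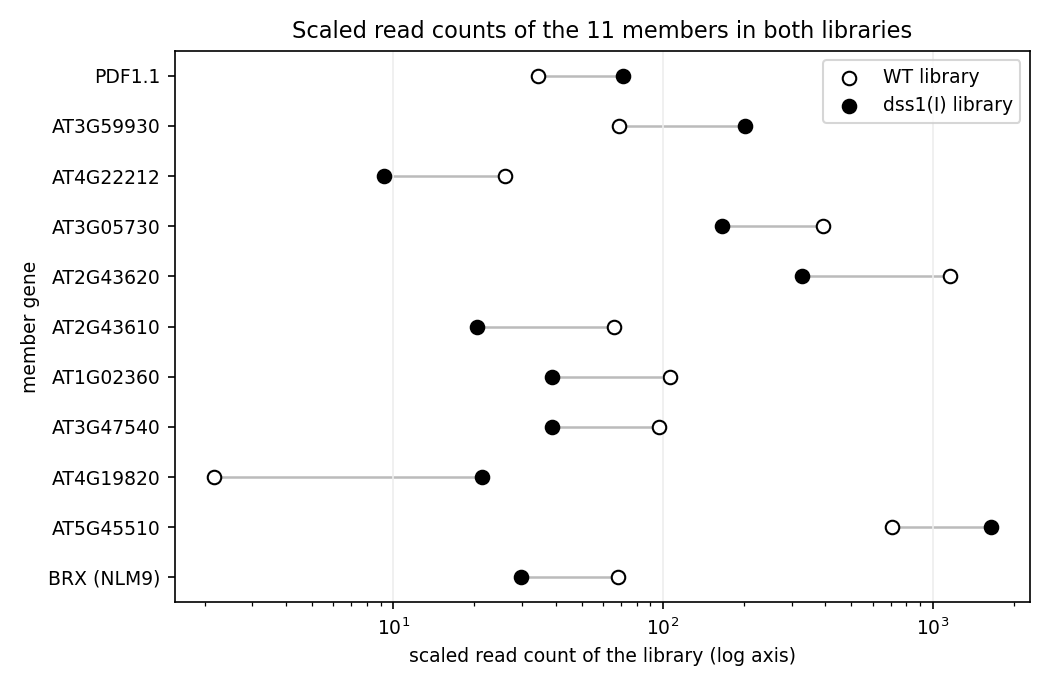
Scaled read counts (log axis) of the 11 members in the *dss1(I)* library (filled circles) and the WT library (open circles), 1 library per genotype, with a grey line joining the values of a gene. *PDF1.1*, AT3G59930, AT4G19820 and AT5G45510 lay to the right in *dss1(I)* and the other 7 genes to the left, and AT2G43620 had the highest WT value of 1158.

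Of the 5 chitinase-like members 4 were lower in *dss1(I)*, with log2 ratios from -1.30 to -1.82, and AT4G19820 was higher. AT2G43620, described as an endochitinase (1180 bp, minus strand of chromosome 2, 18093694 to 18095093), had 354 *dss1(I)* reads and 1074 WT reads. Its scaled counts were 328.3 and 1158, 3.52-fold lower in *dss1(I)*, with a log2 ratio of -1.82 and an interval from -2.01 to -1.66. Its level was 96.9 FPKM in WT, the highest of the 11 members and rank 166 of the table, and 27.2 in *dss1(I)*, rank 344. It was the only lower member whose whole interval lay beyond 2-fold.

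AT2G43610 is a second endochitinase gene on the same strand, 4322 bp from AT2G43620 (1279 bp, 18087812 to 18089371), and its protein is 82% identical to that of AT2G43620. It had 22 *dss1(I)* reads and 61 WT reads, a log2 ratio of -1.64 with an interval from -2.48 to -0.98. The level was far below that of its neighbor, at 1.56 FPKM in *dss1(I)* and 5.08 in WT. Both copies were thus lower in *dss1(I)* by similar ratios, with overlapping intervals. The longest stretch shared by their transcripts is 23 bases, so that no read of 150 bases fits both without a mismatch.

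AT1G02360, a chitinase family gene (1294 bp, minus strand of chromosome 1, 471883 to 473336), had 42 *dss1(I)* reads and 99 WT reads. Its log2 ratio was -1.43 with an interval from -2.03 to -0.93, and its level was 2.94 FPKM in *dss1(I)* and 8.14 in WT. AT3G47540, of the same family by its description (1358 bp, plus strand of chromosome 3, 17520958 to 17522624), also had 42 reads in *dss1(I)*, against 90 in WT. The log2 ratio of AT3G47540 was -1.30 with an interval from -1.90 to -0.79, at 2.80 FPKM in *dss1(I)* and 7.05 in WT. The intervals of both genes reach to less than a 2-fold difference.

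AT4G19820 differed from these. It is described as a glycosyl hydrolase with a chitinase insertion domain (2043 bp, minus strand of chromosome 4, 10767072 to 10769303), and its protein is 14.2% to 17.9% identical to those of the other 4 chitinase-like members, which are 21.3% to 82% identical among themselves. It had 23 *dss1(I)* reads and 2 WT reads, a log2 ratio of 2.82 with an interval from 1.27 to 6.42. Scaled counts were 21.3 and 2.16, and FPKM 1.02 and 0.104. The interval excluded 0, which the authors' call had largely settled beforehand, but with 2 reads in WT the size of the difference was poorly determined. Over the 5 genes the summed level was 35.5 FPKM in *dss1(I)* and 117.3 in WT, most of it from AT2G43620.

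AT5G45510 is the only member described as a probable disease resistance protein, and RefSeq names its product a leucine-rich repeat family protein. It is the longest member (4318 bp, plus strand of chromosome 5, 18444607 to 18449446), with 1775 *dss1(I)* reads and 656 WT reads. Its scaled counts of 1646 and 707.3 were 2.33-fold higher in *dss1(I)*, with a log2 ratio of 1.22 and an interval from 1.07 to 1.34, the narrowest of the members. At 37.3 FPKM in *dss1(I)* and 16.2 in WT, it had the highest level of the 11 members in *dss1(I)*. Its protein of 1222 residues holds at least 1 match to the P-loop pattern, which many nucleotide-binding proteins carry. This is a glycine, any 4 residues, a glycine, a lysine and then a serine or threonine. The pattern occurred in 189 of the 2680 proteins of the table (7.05%) and in all 24 of the long genes with TIR or NB-ARC in the domain column.

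AT1G31880 (1653 bp, plus strand of chromosome 1, 11445490 to 11450232) carries the symbol *NLM9* in the table and *BRX* in RefSeq. *BRX* (BREVIS RADIX) is known as a regulator of root growth, and the words disease resistance come from the name of a domain in its description, so that the gene is kept here by the rule only. It had 32 *dss1(I)* reads and 63 WT reads, a log2 ratio of -1.17 with an interval from -1.87 to -0.57, at 1.75 FPKM in *dss1(I)* and 4.06 in WT. The transcript shares 177 bases with AT2G21030, longer than a read, and its counts are uncertain for that reason.

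Over the members, 4 of 11 were higher in *dss1(I)*, beside 48.6% of the 2762 genes, and 7 were lower, beside 51.4%. A log2 ratio of at least 2 was reached by AT4G19820 alone, beside 8.51% of the table, and a log2 ratio of -2 or less by 0 members, beside 14.3%. An interval wholly above a 2-fold higher count was found for 3 members (AT3G59930, AT4G19820 and AT5G45510), beside 14.2% of the table. For a 2-fold lower count this held for AT2G43620 alone, beside 22.3%. The median log2 ratio was -1.24 over the members and -1.02 over the table. All 11 members reached a scaled count of 10 in either library, and 9 in both libraries. AT4G22212 and AT4G19820 were the members below that level in 1 library. When the libraries were scaled so that the median gene of the table had a ratio of 1, the log2 ratios of members came out 0.82 to 1.02 higher. All 4 higher members then had a log2 ratio of at least 2, with intervals wholly above a 2-fold higher count. The 7 lower members stood between -0.79 (AT2G43620) and -0.17 (AT1G31880), so that 0 of them remained 2-fold lower. AT2G43620, with an interval from -0.99 to -0.63, was no longer wholly beyond 2-fold, and the intervals of the other 6 lower members included 0. The table holds called genes only, and its median of -1.02 lies among the genes called lower. This scaling therefore treats a gene called lower as unchanged, and the changes it brought are no test of the members.

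**Figure D2:**
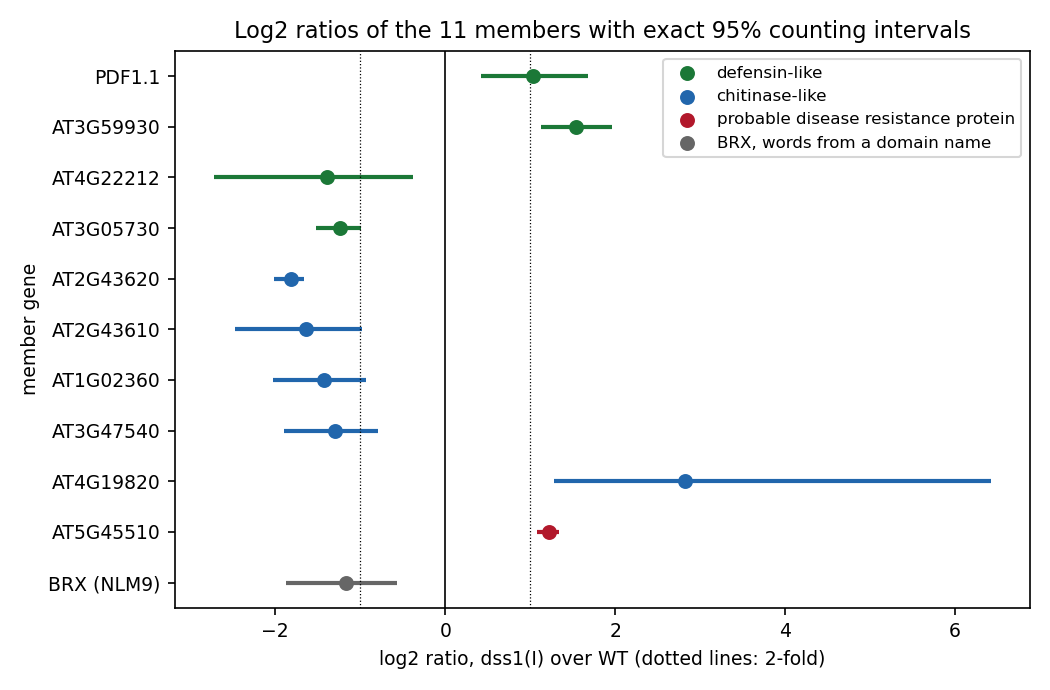
Log2 ratio of scaled counts, *dss1(I)* over WT, for each member (points) with its exact 95% counting interval (bars), colored by class, with dotted lines at a 2-fold difference. AT2G43620 and AT5G45510, with the most reads, have short bars, and the bar of AT4G19820, with 2 reads in WT, runs from 1.27 to 6.42.

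In the table as a whole, direction follows gene length, so the members were set beside other called genes of similar length. These other genes are those whose descriptions did not meet the word conditions of the rule. Receptor genes with the words are thus left out of them. Of the 9 secreted members, the defensin-like and chitinase-like genes of 435 to 2043 bp, 3 were higher in *dss1(I)* (33.3%) with a median log2 ratio of -1.30. Of the 1559 other genes in that range 21.7% were higher, and their median was -1.31. The chitinase-like members stood at 1 higher of 5 with a median of -1.43, beside 31.9% higher and a median of -1.21 for 808 other genes of 1180 to 2043 bp. For the defensin-like members the count was 2 higher of 4, beside 13.0% of 1035 other genes of 435 to 1393 bp. No test was made between the members and the other genes, and each class holds only a few members. The share of other genes that were higher moved with the choice of genes, from 13.1% within the quartiles of the lengths to 29.3% within 30% of a member's length, and it was 5.77% among genes that reached a scaled count of 50 in either library.

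Single members stood differently within 20% of their own length. AT5G45510 had the usual direction, since 98.5% of the 326 other genes of its length were higher, and 140 of them had the same log2 ratio or a higher one. AT3G59930 went against the direction of most genes of its length, where 9.9% of 303 other genes were higher and 23 had at least its log2 ratio. *PDF1.1* also belonged to the smaller side, with 24.4% of 41 genes higher. AT4G19820 lay among 562 genes of which 53.6% were higher and 26 had at least its log2 ratio. AT2G43620 was lower like most genes of its length, and 187 of 603 genes had its log2 ratio or a lower one. The other 5 secreted members and AT1G31880 also had the direction of most genes of their length, of which 10.6% to 36.0% were higher.

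**Figure D3:**
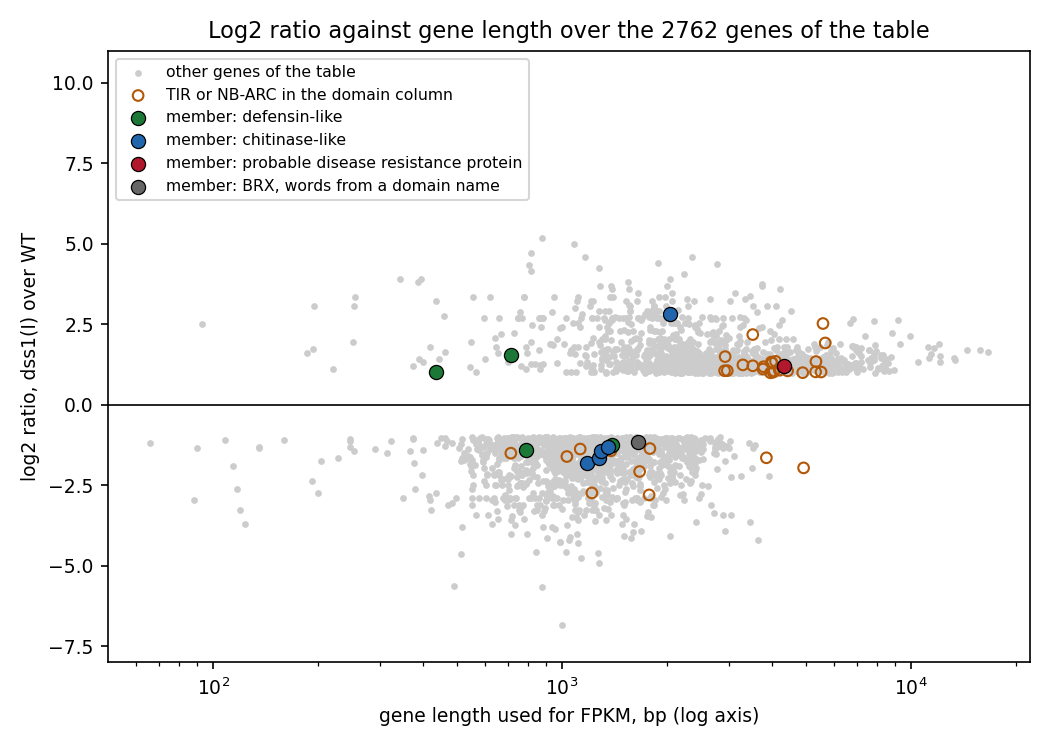
Log2 ratio of scaled counts, *dss1(I)* over WT, against gene length (log axis) for the 2762 genes of the table (grey), the 11 members (filled, colored by class) and the 32 genes with TIR or NB-ARC in the domain column (open circles). Long genes lie mostly above 0 and short genes mostly below, AT5G45510 sits among the long TIR or NB-ARC genes, and *PDF1.1* and AT3G59930 lie above 0 at lengths where most genes are below.

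The 300 bases before each annotated gene start were searched on both strands for 4 short motifs known from defense promoters. The W-box core TTGAC, bound by WRKY factors, was found before 6 of the 11 members and before 50.4% of 27443 annotated genes, a similar share. All 4 defensin-like members had it, as did AT2G43620 with 3 copies and AT1G31880. The GCC-box GCCGCC, bound by ethylene response factors, was found before AT3G59930 alone, beside 2.26% of all genes. The as-1 core TGACG was found before AT2G43610, AT1G02360 and AT1G31880, beside 21.3% of all genes (the letters TTGACG match both this core and the W-box core), and the G-box CACGTG before AT3G47540, beside 7.09%. The windows of AT2G43620 and AT3G59930 are shown, in the direction of transcription and with the matches in capitals, since they hold the most W-box cores and the only GCC-box.
AT2G43620, chr2:18095094-18095393 of TAIR10.1, minus strand: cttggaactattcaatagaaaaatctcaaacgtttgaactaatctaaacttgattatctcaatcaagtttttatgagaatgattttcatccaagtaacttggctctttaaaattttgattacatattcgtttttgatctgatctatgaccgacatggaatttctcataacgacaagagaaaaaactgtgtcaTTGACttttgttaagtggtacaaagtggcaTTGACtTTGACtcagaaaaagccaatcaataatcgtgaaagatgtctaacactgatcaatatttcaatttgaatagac
AT3G59930, chr3:22140321-22140620 of TAIR10.1, minus strand: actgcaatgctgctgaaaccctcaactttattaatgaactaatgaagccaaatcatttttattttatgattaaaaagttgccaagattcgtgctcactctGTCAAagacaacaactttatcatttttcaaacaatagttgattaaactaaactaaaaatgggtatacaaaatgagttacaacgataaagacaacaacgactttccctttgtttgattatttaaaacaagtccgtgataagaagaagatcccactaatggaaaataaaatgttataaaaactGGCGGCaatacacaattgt
A match is a description of the letters and not a shown binding site. In the higher member AT3G59930 the W-box core and the GCC-box are on the opposite strand (GTCAA and GGCGGC), while the 3 W-box cores of the lower member AT2G43620 read in the direction of transcription. The W-box core is also on the opposite strand in *PDF1.1*, which was higher, and in AT1G31880, which was lower. It reads in the direction of transcription in AT4G22212 and AT3G05730, both lower, so that strand did not separate higher from lower members. Among all genes of the table with a window, the W-box core was present in 47.0% of the higher and 57.7% of the lower ones.

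The receptor genes outside the rule were examined beside the members. TIR or NB-ARC stood in the domain column of 32 genes, of which 22 were higher and 10 lower in *dss1(I)*. Of the 24 that were at least 2000 bp long 22 were higher, among them *RPS4* (298 *dss1(I)* reads and 128 WT reads) and *RPP1* (761 and 322), both receptors for known pathogen effectors. AT5G45510 thus had the direction of most of them. The other called genes of the same lengths were higher in 96.8% of 526 cases. These include *LOV1* and *DAR4* of the 24 long genes, whose descriptions lack the words of the rule. The 2 long genes that were lower, AT5G41740 (118 and 319 reads) and AT5G41750 (60 and 203), went against nearly all genes of their length, and of 263 other genes within 20% of the length of AT5G41750 0 were as low. All 8 short genes with a TIR domain, of 713 to 1785 bp, were lower, like the chitinases of similar length, beside 18.7% higher among 1215 other genes. AT2G20142, AT1G72930 and AT1G72940 lack the words of the rule and are among both the 8 and the 1215. Of the 8 short genes, AT1G72900, AT1G72910, AT1G72920, AT1G72930 and AT1G72940 lie close together on chromosome 1, from 27432178 to 27443859. The long genes AT5G41740 and AT5G41750 are also neighbors on chromosome 5, the former ending at 16693119 and the latter starting at 16693832. Whether such neighbors share reads was not examined. *RRS1*, a TIR receptor listed under WRKY in the domain column, had 209 *dss1(I)* reads and 71 WT reads. Its length of 5720 bp lies just beyond the range in which 96.8% of other called genes were higher.

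Genes that act with such receptors or after them were counted from 4 lists of 50 genes in all, of which 11 were in the table. For scale, 2680 genes of the table had an annotated protein, beside 27443 annotated genes in the promoter search. Whether a list was called more or less often than genes at large was not tested. In direction, 2 of the 11 were higher and 9 lower in *dss1(I)*, beside 48.6% higher and 51.4% lower over the table. *PDF1.1*, a member, is 1 of the 2 higher genes. Of 18 partners of receptors, 2 were in the table. *PAD4*, the partner of EDS1, had 84 *dss1(I)* reads and 187 WT reads (log2 ratio -1.36, interval from -1.78 to -1.01), and *BAP1*, a cell death inhibitor, had 11 and 61. Both were lower, as were 56.6% of 662 other genes in their length range of 1400 to 2255 bp. Of 13 genes of salicylic acid and systemic resistance, 5 were in the table and all 5 were lower, beside 66.6% of 1481 other genes in their length range of 902 to 2619 bp. *SARD1* and *CBP60G*, the transcription factors of salicylic acid synthesis, had 25 and 40 reads in *dss1(I)* against 100 and 130 in WT. *PBS3*, an enzyme of that synthesis, had 5 and 29. *PR1* had 47 *dss1(I)* reads and 318 WT reads, the lowest log2 ratio of the 5 at -2.95 (interval from -3.46 to -2.55), and the glucanase gene *PR2* had 94 and 346. Of 720 other genes with lengths from that of *PR1* (902 bp) to that of *PR2* (1477 bp), 85.1% were lower too.

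Of 14 genes for secreted proteins and regulators of jasmonate and ethylene signaling, 3 were in the table, and *PDF1.1* was the only higher one. The osmotin gene *OSM34* had 328 *dss1(I)* reads and 650 WT reads (log2 ratio -1.20, interval from -1.41 to -1.03). *ERF1*, an ethylene response factor, had 0 *dss1(I)* reads and 17 WT reads. Among 695 other genes in the length range of these 3 genes, 435 to 1121 bp, 89.8% were lower, the direction of *OSM34* and *ERF1*. Of 5 genes of penetration resistance 1 was in the table, the callose synthase gene *PMR4*, with 830 *dss1(I)* reads and 330 WT reads. No other gene of the table had its exact length of 6041 bp. Among 526 other called genes somewhat shorter, from 2923 to 5678 bp, 96.8% were higher too. The listed genes outside the table had not been called by the authors, and their values were not analysed here.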

How the data were processed

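Poly-A RNA of *dss1(I)* and WT seedlings was sequenced by the authors, 1 library per genotype. Per the labels, fastp, HISAT2, TAIR10, featureCounts and edgeR were used. The deposited raw read counts are whole numbers. The deposited scaled counts are a signal, the read counts as the authors brought them to equal library sizes with edgeR. The FPKM values and gene lengths are as the authors deposited them. The authors' fold changes, p-values and adjusted p-values were not used, and the number of unused per-sample columns is 0. How reads that fit several genes were counted, and whether strand was used, is not given in the sources used here.

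Log2 ratios used a pseudocount of 1. Intervals are exact Clopper-Pearson 95% intervals with the library totals of 11033843 and 9394592, recovered from counts, FPKM and lengths. Reads are not independent molecules. The ratios and intervals were run on data simulated with counting error only, the error that the intervals assume. That run checks the computation and cannot show how far libraries of the same genotype would differ. Sequences were read from TAIR10.1, where 2743 of 2744 nuclear genes of the table kept their start and end. The genes to be named were set by a rule on level, ratio and direction within each class, which covered all 11 members, together with the listed pathway genes in the table. Members and lists were chosen with earlier results of these data known. The TIR and NB-ARC genes and the 20% windows were added after the data were seen. The scripts ran in Python 3.11.15 (scipy 1.17.1, pandas 2.3.3, numpy 2.4.6, matplotlib 3.10.9).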

Additional observations from a re-analysis of the deposited data

How the results depend on the processing

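The counts of higher and lower members (4 and 7) and of secreted members (3 and 6) did not move by over 1.5 times with pseudocounts of 0.1 and 5, with 3 other scalings or with filters at scaled counts of 10 and 50. Without the condition on the domain column the counts were 26 higher and 14 lower, an alternative chosen after seeing the data. The 1 member with at least a 4-fold difference, AT4G19820, fell to 0 with a pseudocount of 5 and to 0 with the filter at 50. The count was 4 with scaling by the median ratio over the table, 3 at a 3-fold and 11 at a 2-fold threshold. Of 55 log2 ratios of members under 5 settings, 0 changed sign and 45 stayed within the counting interval, and of the other 10, 9 came from the median ratio, which shifted the scaling by 1.02 (log2) and the members' log2 ratios by 0.82 to 1.02. Under it 0 members were 2-fold lower, and the intervals of 6 lower members included 0. The median of the table lies among genes called lower, so these changes came with the choice of scaling and are no test of the members. A pseudocount cannot change a sign. Every lower member had a log2 ratio of -1.17 or less, and the largest shift by a scaling was 1.02. The unchanged signs and direction counts under the pseudocounts and scalings are therefore no test of direction. The share of other genes at the lengths of the secreted members that were higher was 21.7%, and 24.3% with the median ratio, 19.6% and 5.77% with the filters at 10 and 50, 13.1% within the quartiles, and 27.7%, 27.8% and 29.3% within 10%, 20% and 30% of a member's length, the middle one chosen after seeing the data. For these, the cause was not tested. The filters and windows leave other genes in the comparison. No pair of members reached 90% protein identity, so that alternative left all 11. No paired analysis was possible because a single library stands for each genotype, and for the same reason no library could be left out. Depth limits AT4G19820 (2 WT reads) and AT4G22212 (10 reads in *dss1(I)*) most.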

Other observations

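RefSeq names 23 genes of TAIR10.1 as chitinases, of which 7 were in the table, 1 higher and 6 lower in *dss1(I)*. These include the 5 chitinase-like members, and 51.4% of the table and most other genes of the secreted members' lengths (21.7% higher) were lower as well. It names 113 genes as defensins or defensin-like, of which 3 were in the table, and *PDF1.1* is not among them because its product has another name. Of 159 genes named disease resistance protein, 26 were in the table. For scale, 2680 genes of the table had an annotated protein, beside 27443 annotated genes in the promoter search. Whether a family was called more or less often than genes at large was not tested.

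Some genes of the table lie close to members. AT5G45520, a leucine-rich repeat gene on the opposite strand 29 bp from AT5G45510, had 29 *dss1(I)* reads and 1 WT reads, a log2 ratio of 3.74 with an interval from 2.03 to 9.98, the same direction as AT5G45510. *RECQL1*, a DNA helicase gene 1370 bp from AT3G05730, had 43 *dss1(I)* reads and 13 WT reads, the opposite direction to AT3G05730. *CLV1*, a receptor kinase gene of the shoot meristem 5385 bp from *PDF1.1*, had 343 *dss1(I)* reads and 137 WT reads. These neighbors were chosen after their values were seen.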
